A study of Mus musculus with 16 samples.

Results

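The genes described here encode the AP-1 transcription factors and their close relatives: Fos, Fosb, Fosl1 and Fosl2 (the Fos family), Jun, Junb and Jund (the Jun family), and Batf and Atf3. ATAC-seq, which marks accessible DNA by insertion of adapters with Tn5 transposase, gave the open chromatin at these 9 genes. Peaks of the 16 libraries were merged where they overlapped or touched, and a region had to be called in 2 libraries or more. Of 83972 such regions, 46 overlapped the RefSeq body of a member gene or the 10 kb on either side. Among them 25 lay at Fos family genes, 14 at Jun family genes and 7 at Batf and Atf3. By gene, Fos had 9 regions, Fosb 7, Fosl1 6, Fosl2 3, Jun 4, Junb 7, Jund 3, Batf 5 and Atf3 2. In the whole series 24955 regions were called in all 16 libraries, and 25 of the 46 were among these shared regions (13 Fos family, 9 Jun family, 3 at Batf and Atf3).

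The cells were bone marrow cells of male C57Bl/6 mice, depleted of T cells, B cells, erythroid cells and granulocytes by CD3, CD4, B220, Ter119 and Gr1. The 4 groups of 4 libraries were diabetic samples with IL-1β, diabetic samples at baseline, control samples with IL-1β and control samples at baseline. Diabetes was induced with streptozotocin, and the labels give no treatment for control mice and no age for either. Each of the 8 mouse samples was divided: 1 portion was cultured with the inflammatory cytokine IL-1β (interleukin-1β, 10 ng/mL) over 6 h, and the baseline portion was lysed at once. IL-1β and 6 h of culture therefore cannot be told apart, and "after IL-1β" below means after both. The submitters name the cells haematopoietic stem cells, but such a lineage-depleted fraction also holds committed progenitors. In these bulk libraries, fewer cells of a type and less open chromatin per cell cannot be told apart. Each phenotype is represented by 4 mouse samples, and limma p-values rest on the spread between libraries of a group.

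AP-1 is a dimer of basic leucine zipper (bZIP) proteins that binds DNA. Jun proteins pair with each other or with Fos proteins, whereas Fos proteins need a Jun partner. Fos, Fosb, Jun and Junb are immediate early genes: growth factors, cytokines or the stress of tissue dissociation start their transcription within minutes, and it is then shut off again. In blood cell progenitors, AP-1 factors take part in myeloid differentiation and in inflammatory gene expression. IL-1β reaches them through MAP kinases, JNK and p38 among them.

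The promoters of Fos, Fosb, Jun and Junb are printed because regions over these start sites, changed or not, are described below. They are RefSeq sequences of GRCm38.p6, from 250 bases before the start site to 50 bases from it on, 5′ to 3′ on the gene's strand. The median summit of the Fosb start site region, at -308 bp, lies outside this window. Capitals mark TATAAA in Fos and Junb, and TTACCTCA followed by TGACATCA in Jun. Fosb held none of these.
Fos, chr12:85473640-85473939, plus strand: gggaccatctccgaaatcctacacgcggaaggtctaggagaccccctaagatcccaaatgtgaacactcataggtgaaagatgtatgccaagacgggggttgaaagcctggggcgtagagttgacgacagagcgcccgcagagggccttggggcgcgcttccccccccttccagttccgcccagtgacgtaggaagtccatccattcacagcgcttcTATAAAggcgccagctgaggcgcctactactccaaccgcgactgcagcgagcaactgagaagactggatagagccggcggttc
Fosb, chr7:19309996-19310295, minus strand: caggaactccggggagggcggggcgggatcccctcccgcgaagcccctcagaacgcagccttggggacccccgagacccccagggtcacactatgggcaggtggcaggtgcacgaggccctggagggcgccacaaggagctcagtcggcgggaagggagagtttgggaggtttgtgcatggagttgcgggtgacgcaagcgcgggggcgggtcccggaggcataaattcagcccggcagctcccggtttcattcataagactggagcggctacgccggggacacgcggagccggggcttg
Jun, chr4:95052173-95052472, minus strand: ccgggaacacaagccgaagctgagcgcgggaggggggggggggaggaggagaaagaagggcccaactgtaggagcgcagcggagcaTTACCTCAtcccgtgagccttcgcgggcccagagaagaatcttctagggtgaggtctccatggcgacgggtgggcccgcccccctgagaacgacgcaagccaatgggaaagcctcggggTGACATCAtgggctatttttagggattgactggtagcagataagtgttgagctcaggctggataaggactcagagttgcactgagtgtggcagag
Junb, chr8:84978699-84978998, minus strand: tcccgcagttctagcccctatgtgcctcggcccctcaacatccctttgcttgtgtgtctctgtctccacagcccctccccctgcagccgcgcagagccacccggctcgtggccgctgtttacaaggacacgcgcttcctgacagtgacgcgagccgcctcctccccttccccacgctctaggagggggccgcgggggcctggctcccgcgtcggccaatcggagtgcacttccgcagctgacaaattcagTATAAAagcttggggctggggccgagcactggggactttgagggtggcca
The capitals in Jun are known as sites of Jun and Atf2 dimers, through which Jun acts on its own gene. Promoter windows were matched for 8 of the 9 members (not Fosl1) and searched on both strands. TTACCTCA was found in 0.897% of 32544 promoter windows of this length and TGACATCA in 3.37%, and each was in 1 member window. TATAAA was found in 13.6% of the windows and in 2 member windows. The AP-1 consensus TGACTCA (5.19% of windows), TGACGTCA (1.8%) and the CArG box of serum response factor (1.64%) were in 0 of the 8. The NF-kappaB site (8.49%) was in 3 of them, CCAAT (37.4%) in 3 and GGGCGG (35.9%) in 6. A match describes letters in this window and is not a measured binding site. Sites outside the window were not searched, so a motif not found here may lie farther from the start site. The Jund window overlapped no called region.

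Libraries held 37543 to 67779 peaks after IL-1β and 49282 to 72525 at baseline. The genome-wide background was 0.856 to 1.71 reads per summit position. Diabetic baseline replicate 4 stood apart with the lowest background and the lowest median over shared regions, 27 reads against 29 to 58 in the other 15 libraries. Results are also given without it where it matters. Of the stem and progenitor markers, 8 of 11 genes, Kit, Cd34, Meis1 and Flt3 among them, had a region called on the gene body in all 16 libraries. Cd3e, Cd8a and Cd79a, which mark T and B cells, had no region, nor had Hba-a1. Regions on 4 of 5 erythroid, 4 of 5 neutrophil, 3 of 4 monocyte and macrophage, 2 of 3 megakaryocyte, 3 of 4 stromal and endothelial, 1 of 5 T cell and 1 of 5 B cell genes were called in all 16. Over the shared regions on marker genes, 1 of the 4 monocyte and macrophage regions rose after IL-1β and 1 of the 5 neutrophil regions fell. For stem and progenitor genes, the number of regions called over the whole list ranged from 17 to 41 after IL-1β and 29 to 44 at baseline. It ranged from 6 to 9 after IL-1β and 7 to 9 at baseline for neutrophil genes, and from 5 to 9 and 6 to 9 for monocyte and macrophage genes. The part of other cell types in the results below was not tested.

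Jun and Jund held the most open regions of the 9 genes. Values are reads at the highest summit of a region, recovered as whole reads from the deposited fold and p-value, and each summit counts reads extended to 147 bp over 1 position. The Jun start site region was the highest, with a mean of 148 raw reads over 16 libraries, above 99.6% of shared regions. The region on the Jund body had 147, and these leading regions did not differ beyond the spread between libraries. The Junb start site followed with 116 reads, a region downstream of Fos with 112, the Fosl2 start site with 104, the Atf3 start site with 101 and a region upstream of Fosb with 101. Fos and Fosb had lower values at their own start sites, 88.9 and 68.2 reads. Lowest stood Batf, which pairs with Jun proteins in lymphoid and myeloid cells, with 58.9 reads inside its body, and Fosl1 with 47.2.

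The comparison of IL-1β with baseline asks how the stimulus, with its culture, changed these genes. For it, reads were scaled so that the median shared region was equal in all libraries. Summit reads fell at 6 of the 25 shared member regions and rose at 0 (limma on log2 scaled reads, Benjamini-Hochberg adjusted p below 0.05). All 6 lay at Fos or Fosb. Over all 24955 shared regions, 3.4% were lower and 6.42% higher. Of the 9 Jun family regions limma called 0, and at an unadjusted p below 0.05 there were 1 higher and 0 lower, against 3490 higher and 2179 lower of all 24955. The median log2 change was -0.29 over the 13 Fos family regions, 0.06 over the 9 Jun family regions, 0.19 over the 3 at Batf and Atf3 and 0.03 over all shared regions. The family sets include regions that overlap neighbouring genes. Among them are Rtn2 near Fosb, Ccdc85b and Fibp near Fosl1, and Rnaseh2a and Prdx2 near Junb. With libraries scaled by their background, the median of all regions was -0.24, and 9 member regions were lower and 0 higher against 9.39% and 0.813% of all regions. Without diabetic baseline replicate 4, 8 were lower and 2 higher, against 5.9% and 11.1%.

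Fos gives the family its name. Its start site region (chromosome 12, 85473397 to 85474722, median summit at -44 bp from the start site) had 81.7, 59.8, 79.7 and 64.6 scaled summit reads in diabetic samples after IL-1β and 121, 91.6, 89.7 and 106 at baseline. In control samples it had 54.8, 90.7, 67.8 and 69.2 after IL-1β and 98.1, 102, 93.4 and 118 at baseline. Each of the 8 mouse samples was lower after IL-1β than in its own baseline portion, although the highest IL-1β library stood a little above the lowest baseline library. The log2 change was -0.54 (SE 0.10, limma adjusted p = 0.000645). The region 8393 bp downstream of the Fos body (chromosome 12, 85485667 to 85486437) averaged 96.7 ± 11.6 after IL-1β and 123 ± 13.2 at baseline (SD, n = 8 each; log2 change -0.35, SE 0.08, limma adjusted p = 0.00575) and was lower in 7 of 8 mouse samples. The third shared region, 4743 bp upstream of the body, averaged 81.2 ± 7.23 after IL-1β and 87.2 ± 8.53 at baseline (SD, n = 8 each) and was not called (limma adjusted p = 0.448).

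Fosb encodes a close relative of Fos with a lasting splice form. Its start site region (chromosome 7, 19309868 to 19310543, median summit at -308 bp) had 59.4, 47.7, 51.5 and 54.5 scaled summit reads in diabetic samples after IL-1β and 75.5, 70.1, 81.7 and 78.5 at baseline. In control samples the values were 53.2, 54.1, 51.2 and 53.7 after IL-1β and 76.9, 81, 74.4 and 87.3 at baseline. The highest IL-1β library was below the lowest baseline library. Groups were separated in this direction at 0.645% of all shared regions and at 2 member regions, both of Fosb, and in the opposite direction at 1.58% of all regions and 0 member regions. The log2 change was -0.56 (SE 0.07, limma adjusted p = 1.19e-05).

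The other separated region lies 9448 bp upstream of the Fosb body (chromosome 7, 19319566 to 19320422). It had 82.8, 69.2, 74.8 and 84.8 scaled summit reads in diabetic samples after IL-1β and 133, 117, 117 and 129 at baseline. Control samples had 66.2, 88, 76.1 and 70.2 after IL-1β and 104, 120.3, 105 and 127 at baseline. Among the 25 shared member regions it had the largest fall in summit reads: the log2 change was -0.64 (SE 0.08, limma adjusted p = 5.97e-06). Within the Fosb body, a region with its summit at 1334 bp from the start site (chromosome 7, 19307722 to 19308969) averaged 81.1 ± 8.7 after IL-1β and 99.8 ± 7.86 at baseline (SD, n = 8 each; log2 change -0.30, SE 0.07, limma adjusted p = 0.0100) and was lower in 8 of 8 mouse samples. A region 6526 bp downstream, which overlaps the neighbouring gene Rtn2, averaged 31.6 ± 4.36 after IL-1β and 41.5 ± 7.02 at baseline (SD, n = 8 each; log2 change -0.39, SE 0.12, limma adjusted p = 0.0485). That call is near the threshold: it was lost in 14 of the 16 fits that left out 1 library. The remaining shared Fosb region, 6195 bp upstream of the body, averaged 59.1 ± 5.05 after IL-1β and 68 ± 15.5 at baseline (SD, n = 8 each) and was not called.

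Regions called in at least 12 libraries bring 5 further member regions into the fit. Then 8 of 30 were lower and 0 higher, against 3.07% and 6.23% of 40970 regions. The further falls were 1380 bp upstream of Fos (chromosome 12, 85472102 to 85472510) and 1313 bp downstream of Fosb (chromosome 7, 19300600 to 19301383). The Fos region averaged 38.4 ± 4.41 scaled reads in 7 IL-1β libraries and 83.1 ± 10.5 in 8 baseline libraries (SD; log2 change -1.12, SE 0.09, limma adjusted p = 7.94e-08), and 1 control IL-1β library without a call there is left out of the value. The Fosb region averaged 24.5 ± 4.98 in 8 IL-1β libraries and 35.9 ± 3.51 in 6 baseline libraries (SD; log2 change -0.57, SE 0.14, limma adjusted p = 0.00969), with 1 diabetic and 1 control baseline library left out. A value exists only where a peak was called, so the reads of libraries left out are not known. If the baseline libraries without a call held fewer reads, the fall at the Fosb region is overstated.

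Fosl1 and Fosl2 encode Fra-1 and Fra-2, which lack the strong activation domain of Fos. Neither had a called change. The leading Fosl1 region (chromosome 19, 5447407 to 5448072) crosses an edge of the body, which spans 5447698 to 5455938. Its median summit, at 5447624, lies just outside. The region averaged 41.2 ± 9.82 after IL-1β and 49.9 ± 9.76 at baseline in scaled summit reads (SD, n = 8 each; log2 change -0.29, SE 0.14, limma adjusted p = 0.225). It was called lower with the mouse as a block (limma adjusted p = 0.0442) and with background scaling (limma adjusted p = 0.0238). Fosl2 averaged 106 ± 11.3 after IL-1β and 99.4 ± 13.4 at baseline at its start site (chromosome 5, 32134928 to 32136665; SD, n = 8 each; limma adjusted p = 0.56).

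Jun encodes the main partner of Fos proteins. Its start site region (chromosome 4, 95051405 to 95052933, median summit at -107 bp) had 180.4, 145, 156 and 152 scaled summit reads in diabetic samples after IL-1β and 147, 136, 128 and 225 at baseline. Control samples had 132, 156, 134 and 145 after IL-1β and 131, 137, 118 and 145 at baseline. The groups overlapped, and the highest value of all was that of diabetic baseline replicate 4. The log2 change was 0.06 (SE 0.09, limma adjusted p = 0.77), and 0.15 without that library. With cyclic loess or background scaling the estimate was below 0 and was not called either.

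Junb can hold back Jun and is known to restrain myeloid proliferation. At its start site (chromosome 8, 84977329 to 84979012) it averaged 118 ± 10.8 after IL-1β and 111 ± 10.6 at baseline (SD, n = 8 each; limma adjusted p = 0.525). The region 783 bp upstream of the body (chromosome 8, 84979531 to 84980367) averaged 112 ± 11.6 after IL-1β and 96.1 ± 12 at baseline (SD, n = 8 each; log2 change 0.22, SE 0.08, limma adjusted p = 0.084), and the adjusted p was 0.0311 with the mouse as a block in limma. With that block, 7 member regions were lower and 1 higher, against 5.19% and 9.62% of all regions. Jund, the Jun protein present in most resting cells, averaged 147 ± 13.6 after IL-1β and 147 ± 22.2 at baseline on its body (chromosome 8, 70698335 to 70700194; SD, n = 8 each; limma adjusted p = 0.976). With cyclic loess scaling the Jund region was called lower (log2 change -0.11, limma adjusted p = 0.018).

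Batf and Atf3 had no call. Batf averaged 60.8 ± 11.4 after IL-1β and 54.6 ± 4.86 at baseline in scaled summit reads in its body (chromosome 12, 85704653 to 85705997; SD, n = 8 each; limma adjusted p = 0.431). Atf3, a stress-induced factor that mostly represses, averaged 107 ± 7.32 after IL-1β and 93.5 ± 9.81 at baseline at its start site (chromosome 1, 191182359 to 191183893; SD, n = 8 each; log2 change 0.19, SE 0.07, limma adjusted p = 0.0903). The families were also set against each other, as the mean log2 reads of the 13 Fos family regions minus those of the 9 Jun family regions. This difference was -0.92 to -0.70 in the 8 IL-1β libraries. At baseline it was -0.49 to -0.36 in 7 libraries and -0.88 in diabetic baseline replicate 4, which lay among the IL-1β libraries. It is a description of the chosen genes, with no test.

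**Figure D1:**
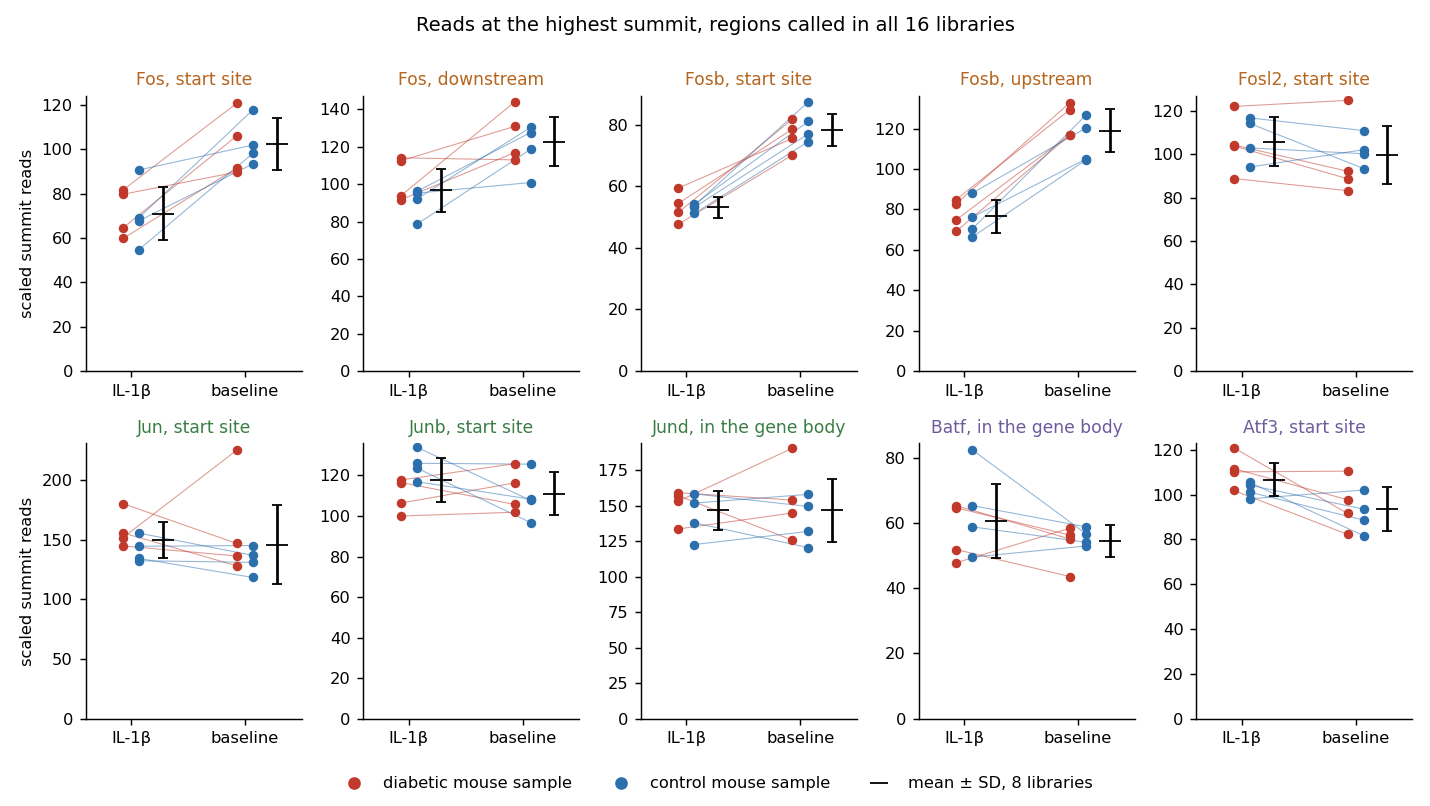
Scaled reads at the highest summit of 10 member regions in each library, IL-1β left of baseline; diabetic samples are red and control samples blue, thin lines join the portions of a mouse sample, and black bars are the mean and SD of 8 libraries. Fos and Fosb start sites and the outer Fosb region were lower after IL-1β in 8 of 8 mouse samples, while the groups overlap at Jun, Junb and Jund.

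Within each phenotype, 3 member regions were lower after IL-1β and 0 higher, and they were the same 3: the Fos start site, the Fosb start site and the outer upstream Fosb region. In diabetic samples the log2 changes of summit reads were -0.52, -0.52 and -0.67 (limma adjusted p = 0.0398, 0.00436 and 0.001), against a background of 0.641% lower and 2.19% higher. In control samples they were -0.56, -0.59 and -0.60 (limma adjusted p = 0.0255, 0.00136 and 0.00201), against 0.97% lower and 1.78% higher. The test of the difference between the phenotypes' responses called 0 member regions and 0% of all regions, and 0 member regions had an unadjusted limma p below 0.05, against 1.67% of all regions. Diabetic against control samples at baseline gave 0 member calls and 0% over all regions, with 1 Fos family region lower and 0 higher at an unadjusted limma p below 0.05. Of all 24955 regions 1177 were lower and 1766 higher at that p, so 1 of 25 is no more than their share. After IL-1β, diabetic against control samples gave 0 member calls and 0% over all regions, with 1 Jun family region higher and 0 lower at an unadjusted limma p below 0.05, near the share of all regions, of which 734 were higher and 352 lower.

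Peak calls, whose gain or loss is the other measure asked of these genes, were fewer after IL-1β along the bodies of Jun and Fosb. At 7 member regions at least 4 fewer IL-1β than baseline libraries made a call, and at 0 at least 4 more. Over all regions the shares were 7.78% lost and 1.98% gained, or 11.1% and 2.82% of the regions not called in all 16 libraries. Counting any difference, IL-1β libraries made more calls at 1 Fos family region, fewer at 10 and as many at 14. At Jun family regions they made more at 3, fewer at 2 and as many at 9, and over all regions 14.9% gained and 44.7% lost. Of these 3 gains, 2 lay near Junb but at or nearer to other genes. The first region overlaps Prdx2 (7 IL-1β and 4 baseline libraries), and the nearest gene of the second is Hook2 (2 and 1). With the same number of peaks taken from each list, 1 member region was lost and 1 gained at a difference of at least 4 libraries. Lists of equal length also leave out the weakest peaks of the longer lists.

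The region at the 3′ end of Jun (chromosome 4, 95048708 to 95049607) was called in 0 of 8 IL-1β libraries and in 7 of 8 baseline libraries, all but diabetic baseline replicate 4 (two-sided Fisher's exact test, unadjusted p = 0.0014). The neighbouring region in the Jun body (chromosome 4, 95049767 to 95050998) was called in 2 of 8 IL-1β libraries and in 8 of 8 baseline libraries (Fisher's exact p = 0.00699), and both IL-1β calls came from control samples. In Fosb, a region late in the body (chromosome 7, 19303878 to 19304149) was called in 0 of 8 IL-1β libraries and in 6 of 8 baseline libraries (Fisher's exact p = 0.00699). After Benjamini-Hochberg adjustment over 83972 regions, Fisher's exact test called 0 member regions and 0% of all regions. At an unadjusted p below 0.05 these 3 member regions were lost and 0 gained, against 3.03% and 1.1% of all regions.

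The other losses of at least 4 libraries were 2 regions downstream of Fos, 1 in Fosl2 and 1 near Batf. The Fos regions, 543 bp and 9554 bp from the body, were each called in 0 IL-1β and 4 baseline libraries. The Fosl2 region, with its summit at 2169 bp from the start site, was called in 3 IL-1β and 7 baseline libraries, and the Batf region, 3564 bp from the body, in 0 IL-1β and 4 baseline libraries. A call needs more reads than the local background allows. The background at an uncalled region is not in the lists, so that of the nearest region called in all libraries stands in for it, in raw reads that are not scaled for depth. With the background of the Jun start site, the 3′ Jun region would have been called with 30 to 44 reads in the 8 IL-1β libraries, against 44 to 71 in the 8 baseline libraries, and these ranges meet. With that of the Fosb body, the late Fosb region would have needed 16 to 20 reads in the 8 IL-1β libraries, against 25 to 66 in the 8 baseline libraries.

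**Figure D2:**
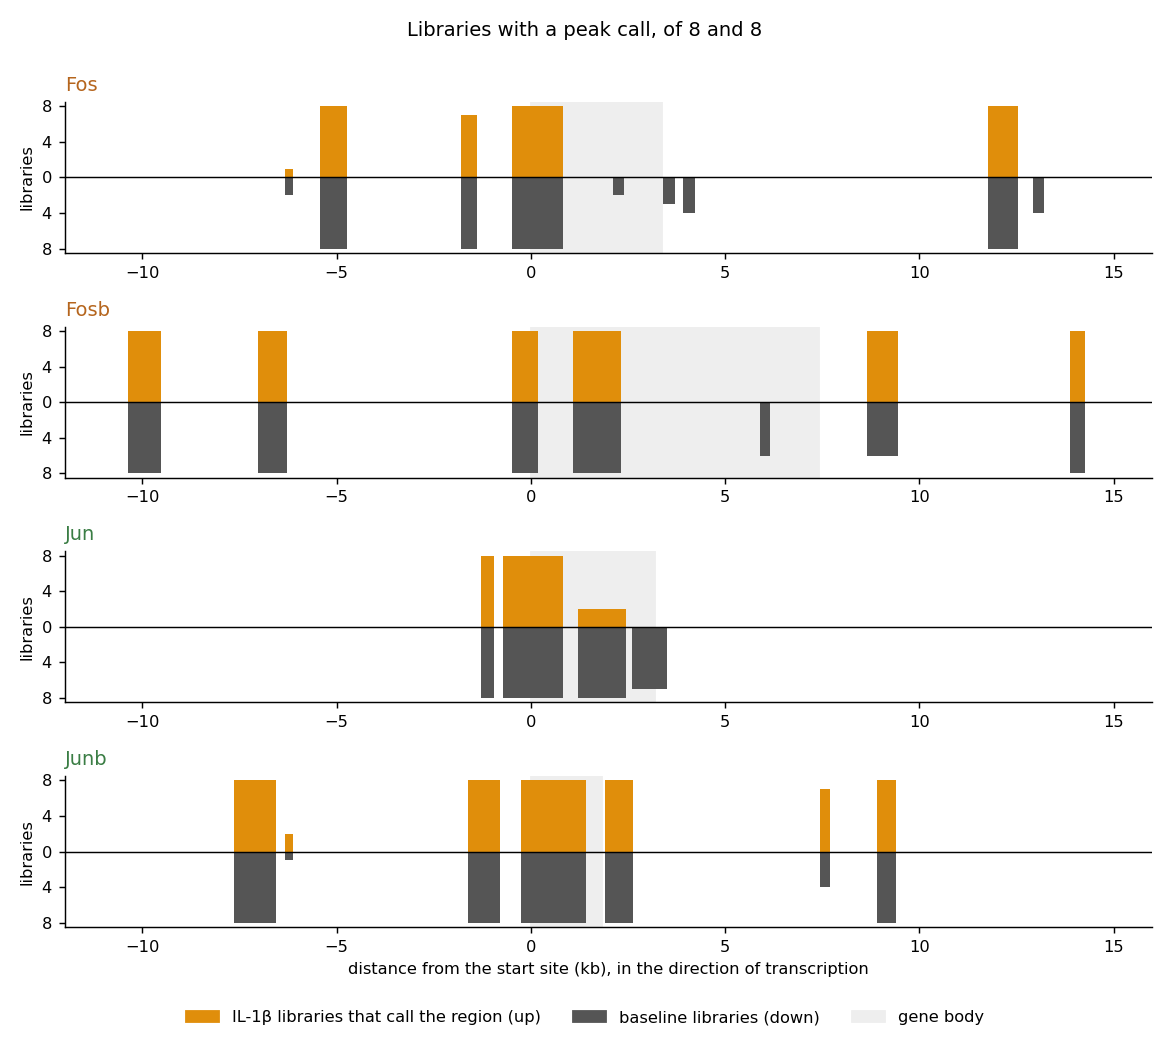
Number of libraries that call each region along Fos, Fosb, Jun and Junb, with IL-1β upward and baseline downward (of 8 each), against distance from the start site in kb; shading marks the gene body. The 3′ Jun region has 0 IL-1β and 7 baseline libraries, the late Fosb region 0 and 6, and the start site regions 8 and 8.

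The share of each gene body inside called peaks gives the same calls by length. In diabetic samples peaks covered 17.3, 15.6, 7.25 and 6.37% of the 3187 bp of Jun after IL-1β and 43.3, 46.7, 54.4 and 37.2% at baseline. In control samples they covered 25, 16.3, 25 and 7.47% after IL-1β and 64.8, 66.5, 67.3 and 63.2% at baseline. No IL-1β library reached the lowest baseline library. The mean difference of -40.4 percentage points was the largest fall among 15154 genes with a called region, whose median difference was -0.283 points. The lost calls behind it were weak at baseline. Their mean deposited fold there was 2.11 at the 3′ Jun region and 2.02 at its neighbour, and 1.94 at the late Fosb region. The covered share was not computed with lists of equal length. The covered share of Fosb was 7.58 ± 1.33% after IL-1β and 19 ± 3.44% at baseline (SD, n = 8 each), and here too the groups did not overlap. Non-overlap in this direction was found at 2 of the 9 member genes and at 0.264% of all genes. Junb had 16.1 ± 7.17% after IL-1β and 46.4 ± 18.7% at baseline, Jund 41.8 ± 5.04% after IL-1β and 55.6 ± 6.72% at baseline and Fos 7.78 ± 2.35% after IL-1β and 20.5 ± 6.33% at baseline (SD, n = 8 each), and all 3 overlapped. The falls of Junb, Jund, Fos and Fosb ranked 5, 19, 21 and 26 among all genes. Body length bears on these ranks, since a lost peak takes more percentage points from a short body. Jun, Junb, Jund, Fos and Fosb have bodies of 1840 to 7423 bp. Fosl1, Atf3, Fosl2 and Batf, with 8241 to 22368 bp, ranked 8921, 2406, 1260 and 8470. Fosl2, Fosl1, Batf and Atf3 had 0.702, 6.77, 5.13 and 5.2% after IL-1β and 2.26, 6.97, 5.35 and 6.18% at baseline. Of all genes, 85.5% had a lower mean after IL-1β.

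**Figure D3:**
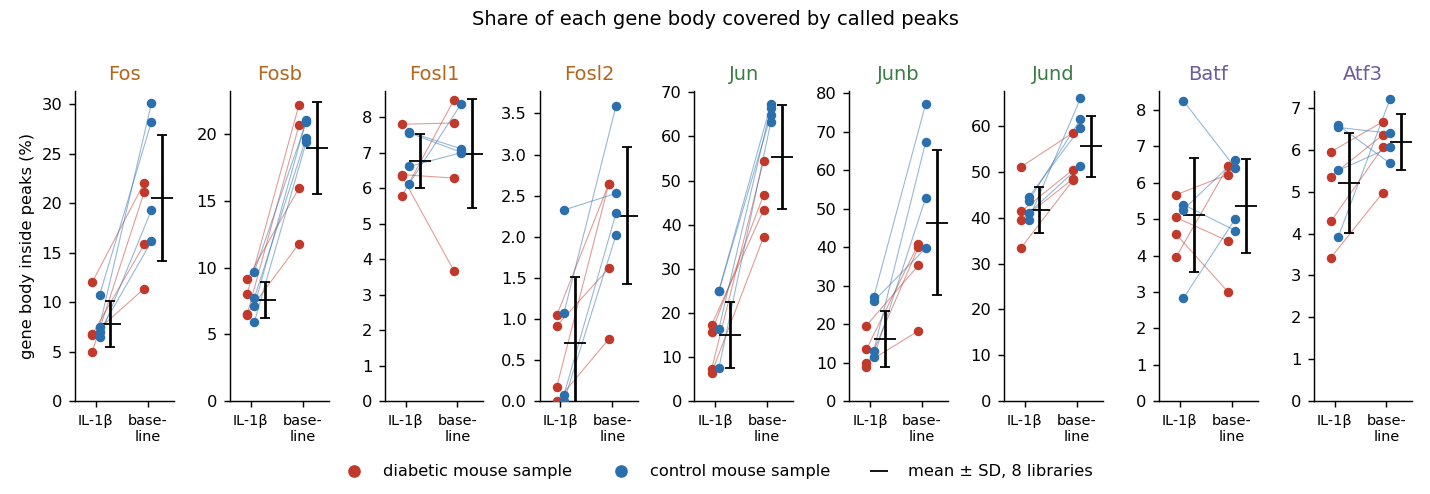
Share of the gene body inside called peaks (percent) for the 9 genes in each library, IL-1β left of baseline, with the mean and SD of 8 libraries. Jun and Fosb separate completely, and Fosl1 and Batf stay between 5 and 7% on average in both conditions.

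A wider measure came from the peak caller's local background, which above the genome-wide level counts reads in the 10 kb around a summit. It was chosen after seeing the data and is independent of how high the summit itself stands only in part, since the summit lies inside the window. In 20540 shared regions it could be read in all libraries. Reads per 10 kb fell at 14 of the 25 member regions and rose at 2 (limma, adjusted p below 0.05), against 9.19% lower and 11.3% higher of all regions. The falls were 8 of 13 at the Fos family, 5 of 9 at the Jun family and 1 at Atf3, and the rises were 1 each at Junb and Batf. With background scaling 0 member regions rose, against 1.81% higher and 13.4% lower of all regions. The falls in the Fosb body and at the Fos and Jun start sites were still called (log2 changes -1.95, -1.66 and -0.91). Without diabetic baseline replicate 4, 17 were lower and 2 higher, against 13% and 13.7%. In diabetic samples alone 12 member regions were lower and 1 higher, against 3.05% and 4.2% of all regions. In control samples alone 13 were lower and 1 higher, against 4.11% and 4.64%. Regions of 1 gene share most of their window, so those of Fosb near the start, of Jun and of Jund are not separate measurements.

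The 3 largest falls of all 20540 regions lay at Fosb and Fos. Around the summit in the Fosb body there were 558, 501, 514 and 516 scaled reads per 10 kb in diabetic samples after IL-1β and 1536, 1548, 1722 and 1307 at baseline. Control samples had 484, 481, 509 and 511 after IL-1β and 1639, 2258, 1952 and 2251 at baseline. Every IL-1β library was well below every baseline library, and the log2 change was -1.78 (SE 0.07, limma adjusted p = 1.75e-11). The window at the Fosb start site, which is nearly the same one, averaged 469 ± 21.3 after IL-1β and 1492 ± 287 at baseline (SD, n = 8 each; log2 change -1.65, SE 0.07, limma adjusted p = 3.1e-11).

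Around the Fos start site there were 851, 649, 651 and 624 scaled reads per 10 kb in diabetic samples after IL-1β and 2101, 1789, 1694 and 1349 at baseline. Control samples had 717, 703, 764 and 683 after IL-1β and 1999.7, 2457, 2212 and 2505 at baseline. The groups did not overlap, and the log2 change was -1.49 (SE 0.08, limma adjusted p = 5.3e-09). The downstream Fos region averaged 440.1 ± 37.8 after IL-1β and 809.5 ± 114 at baseline (SD, n = 8 each; log2 change -0.87, SE 0.07, limma adjusted p = 9e-08), and the outer upstream Fosb region 573 ± 31.5 after IL-1β and 919.8 ± 148 at baseline (SD, n = 8 each; log2 change -0.67, SE 0.08, limma adjusted p = 8.98e-06).

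Jun and Jund, which had no called change at their summits, were lower in this measure. Around the Jun start site there were 1643, 1329, 1376 and 1294 scaled reads per 10 kb in diabetic samples after IL-1β and 2289, 2129, 2031 and 2785 at baseline. Control samples had 1473, 1230.5, 1484 and 1400.1 after IL-1β and 2366, 2673, 2143 and 2457 at baseline. Again no IL-1β library reached a baseline library, and the log2 change was -0.75 (SE 0.07, limma adjusted p = 2.05e-06). Jund averaged 1357 ± 49.4 after IL-1β and 2264 ± 262 at baseline around its body (SD, n = 8 each; log2 change -0.73, SE 0.06, limma adjusted p = 1.66e-07). Groups did not overlap at 11 member regions, against 2.39% of all regions.

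At Junb the regions differed in direction. The region 57 bp from its body averaged 1739.6 ± 79.6 after IL-1β and 1963 ± 189.9 at baseline in scaled reads per 10 kb (SD, n = 8 each; log2 change -0.17, SE 0.06, limma adjusted p = 0.0362) and was lower in 8 of 8 mouse samples. The Junb start site was not called and averaged 1898 ± 86.5 after IL-1β and 2038 ± 194 at baseline in scaled reads per 10 kb (SD, n = 8 each; limma adjusted p = 0.251). The region 6549 bp upstream of Junb averaged 1046 ± 33.7 after IL-1β and 834 ± 49.3 at baseline (SD, n = 8 each; log2 change 0.33, SE 0.05, limma adjusted p = 5.21e-05) and was higher in 8 of 8 mouse samples. It lies farther from Junb than the region whose nearest gene is Hook2, on the same side. Batf averaged 317 ± 21.3 after IL-1β and 276 ± 22.7 at baseline (SD, n = 8 each; log2 change 0.20, SE 0.06, limma adjusted p = 0.0254), and with background scaling its log2 change was 0.03. Atf3 averaged 646 ± 54.6 after IL-1β and 826 ± 76.8 at baseline (SD, n = 8 each; log2 change -0.35, SE 0.06, limma adjusted p = 0.000499). Fosl1 and Fosl2 had no called change (limma adjusted p = 0.504 and 0.341 at the leading regions).

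Reads per 10 kb did not separate the phenotypes at the adjusted threshold. Diabetic against control samples at baseline gave 0 member calls and 0% over all regions, while 12 of 25 member regions, 10 of them Fos family, were lower at an unadjusted p below 0.05, as were 1872 of 20540 regions. At the Fosb body the log2 difference, diabetic minus control, was -0.40 (SE 0.10, limma adjusted p = 0.289), and diabetic baseline replicate 4 was the lowest of the 8 baseline libraries there and at the Fos start site. After IL-1β 0 member regions passed even unadjusted, against 5.51% of all regions. The test of the difference between responses called 0 (0% of all regions), and 4 Fos family regions passed unadjusted, with the smaller fall in diabetic samples, as did 129 higher and 78 lower of all 20540 regions.

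**Figure D4:**
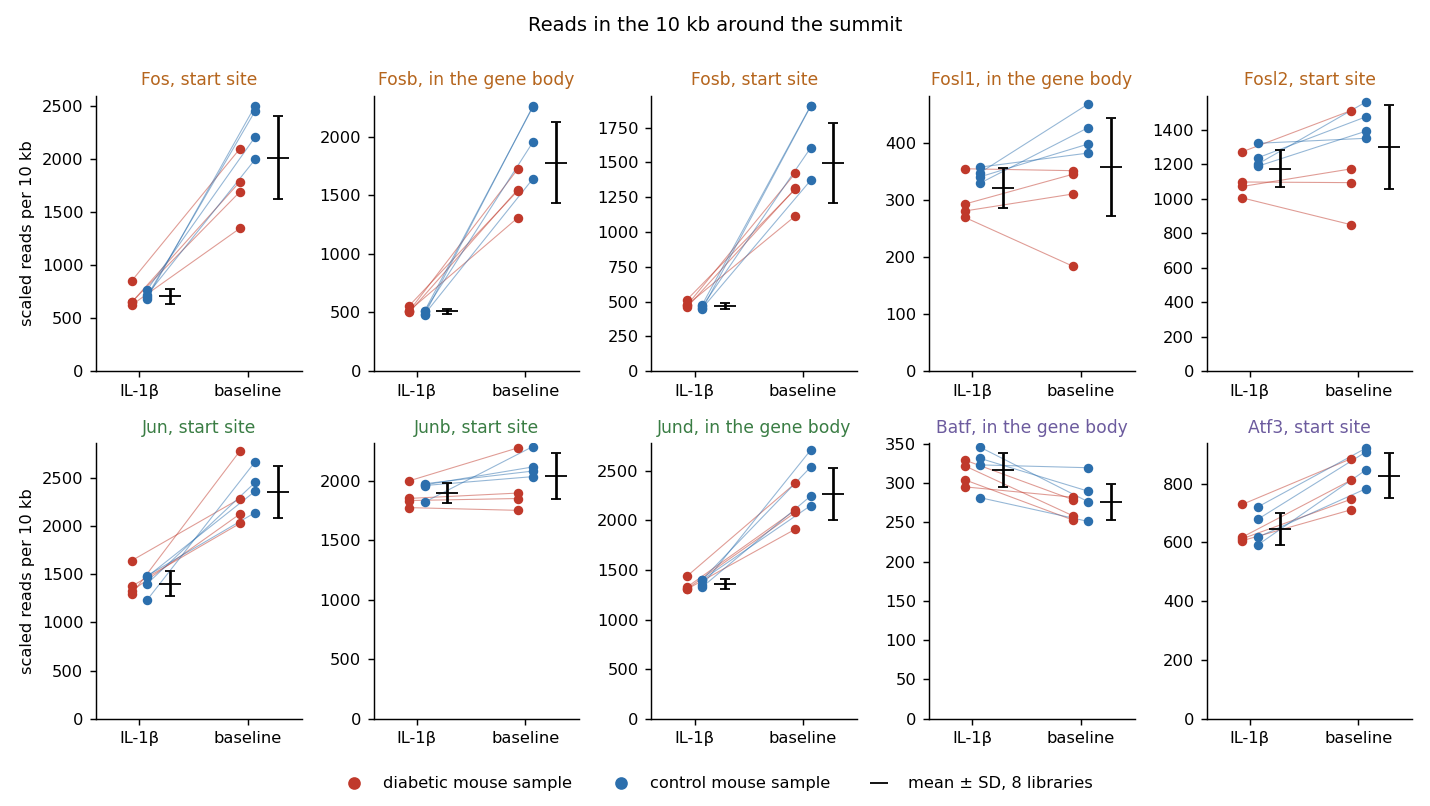
Scaled reads per 10 kb around the summit of 10 member regions in each library, IL-1β left of baseline; diabetic samples are red and control samples blue, lines join the portions of a mouse sample, and black bars are the mean and SD of 8 libraries. The Fos, Fosb, Jun and Jund panels separate, and the Junb start site panel overlaps. The Fosl1 panel, titled as in the gene body, shows the region across an edge of that body.

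The fold that the authors deposited for each peak moved the other way at these genes. It is the reads at the summit plus 1 over the local background plus 1, so that it grows when the background around a summit falls more than the summit. The median-scaled deposited fold rose at 12 of 25 member regions and fell at 0 (limma on its log2, adjusted p below 0.05), against 3.92% higher and 2.2% lower of all regions. Of the 12, 6 were at Fos and Fosb, 5 at Jun family genes and 1 at Atf3. Without scaling, 11 were higher and 0 lower, against 1.09% and 5.81% of all regions. The median log2 change was 0.25 over the Fos family, 0.33 over the Jun family and 0.04 over all regions.

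The means that follow are of the fold as deposited, and the log2 changes are of the median-scaled fold. The summit in the Fosb body had a deposited fold of 9.27 ± 0.825 after IL-1β and 3.99 ± 0.951 at baseline (SD, n = 8 each; log2 change 1.39, SE 0.12, limma adjusted p = 1.08e-06). At the Fos start site the fold was 6.07 ± 0.695 after IL-1β and 3.61 ± 0.839 at baseline (SD, n = 8 each; log2 change 0.91, SE 0.13, limma adjusted p = 0.000155). The Jun start site had 6.73 ± 0.472 after IL-1β and 4.26 ± 0.691 at baseline (SD, n = 8 each; log2 change 0.81, SE 0.11, limma adjusted p = 9.54e-05). Jund had 6.77 ± 0.283 after IL-1β and 4.54 ± 1.07 at baseline on its body (SD, n = 8 each; log2 change 0.75, SE 0.12, limma adjusted p = 0.00061). At all 4, reads per 10 kb had fallen, and at Fos and Fosb so had the summit reads. The outer upstream Fosb region, whose summit reads fell most among the shared member regions, had 7.88 ± 0.286 after IL-1β and 8.78 ± 1.98 at baseline. It had no called change of fold (log2 change 0.01, SE 0.11, limma adjusted p = 0.961, while the unscaled means go the other way). The Junb start site had 3.96 ± 0.336 after IL-1β and 3.77 ± 0.467 at baseline (limma adjusted p = 0.163).

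**Figure D5:**
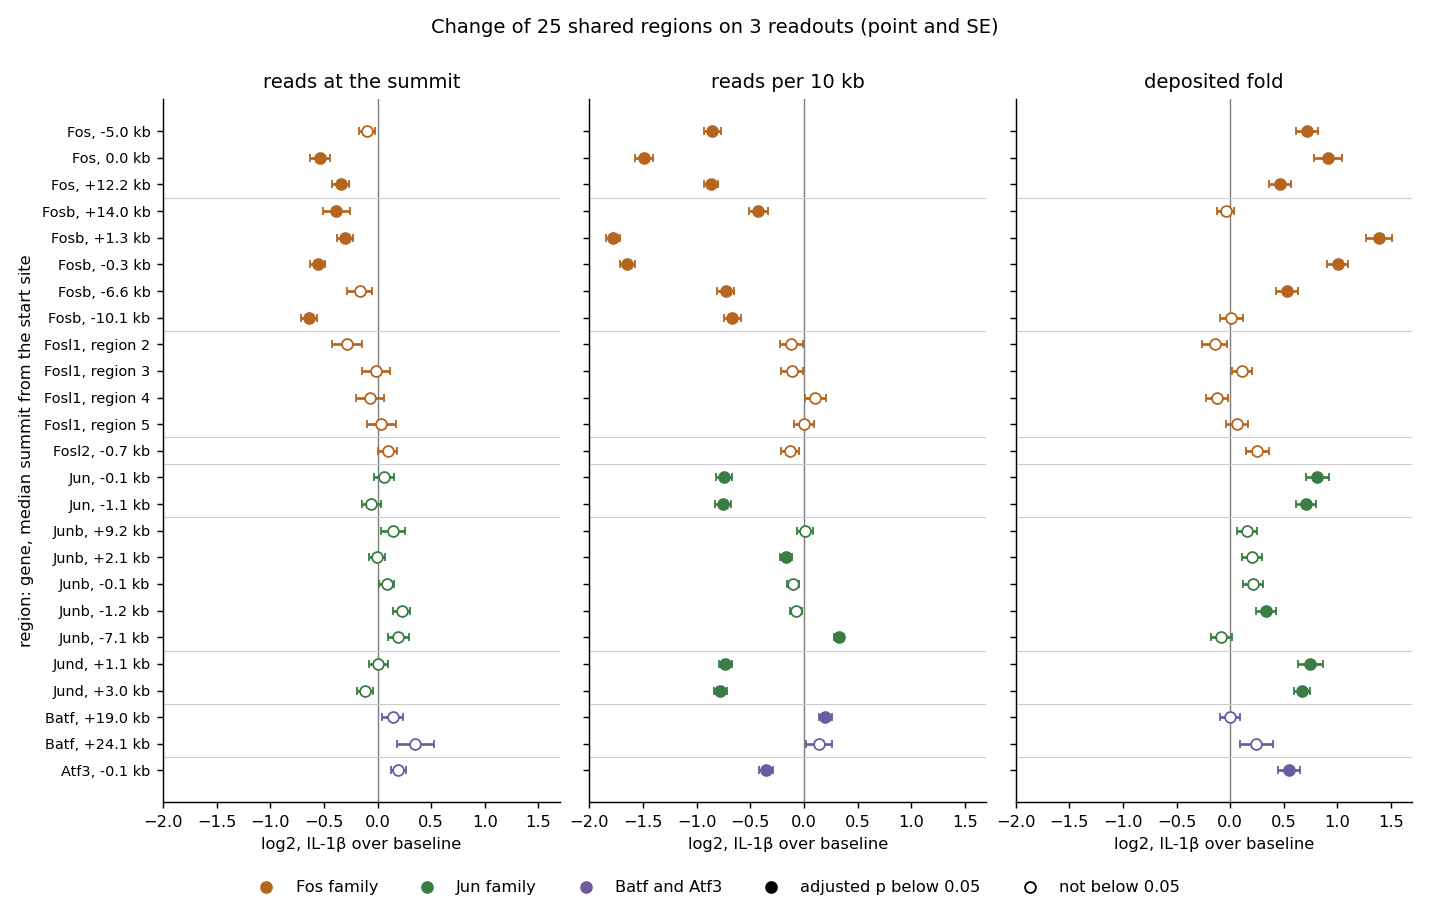
Log2 change, IL-1β over baseline, with its SE for the 25 shared member regions in summit reads, reads per 10 kb and deposited fold; brown marks the Fos family, green the Jun family and purple Batf and Atf3, and filled points have an adjusted p below 0.05. At Fos and Fosb both read measures lie below 0 where the deposited fold lies above it.

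The number of regions called per gene, as a share of each list, was the last measure. Per 1000 regions called in a library, Jun had 0.0463 ± 0.0106 after IL-1β and 0.0683 ± 0.00985 at baseline (SD, n = 8 each; exact permutation test, two-sided, unadjusted p = 0.00163, adjusted p = 0.0951). Junb had 0.126 ± 0.0221 after IL-1β and 0.0992 ± 0.0133 at baseline (SD, n = 8 each), with an unadjusted p of 0.00612 in the exact permutation test (adjusted p = 0.14). Fos and Fosl2 had unadjusted exact permutation p-values of 0.0253 and 0.0302 with lower means after IL-1β, and Jund 0.0282 with a higher mean. Fosb, Fosl1 and Batf gave unadjusted exact permutation p-values of 0.369, 0.229 and 0.593, and Atf3 has too few regions for this test. Of 11765 genes tested 0 passed after adjustment (0% in either direction), while 10.9% were higher and 5.47% lower at an unadjusted p below 0.05. With lists of equal length, the Jun difference was -0.0065 (exact permutation p = 0.642) and the Junb difference 0.0119 (exact permutation p = 0.154). The Junb difference was 0.00911 with a flank of 2 kb (exact permutation p = 0.102). It was 0.0362 with peaks at a −log10 q of at least 5 (exact permutation p = 0.011). As plain numbers, the median library had 6 peaks within 10 kb of Junb after IL-1β and 7 at baseline. Near Jund it had 3 and 3.

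Other genes of the pathway were read from the same fit of summit reads. Of 41 shared regions at 16 other bZIP genes, 6 were higher after IL-1β and 0 lower, against 6.42% higher and 3.4% lower of all shared regions, with a median log2 change of 0.13. All 6 were at Bach2, Nfe2 and Mafk. A region of Bach2, a repressor known from B cells, had 43.9 ± 8.71 scaled summit reads after IL-1β and 25.1 ± 5.41 at baseline (SD, n = 8 each; log2 change 0.81, SE 0.13, limma adjusted p = 0.0002), and a second Bach2 region changed by 0.61. The smallest called rises were at Nfe2, an erythroid and megakaryocyte factor (log2 change 0.26, SE 0.08, limma adjusted p = 0.0437), and Mafk, its small Maf partner (log2 change 0.39, SE 0.10, limma adjusted p = 0.0163). Of 35 regions at 16 upstream kinase and ternary complex factor genes, 2 were higher, near the 6.42% of all regions, and 4 lower, against 3.4%. Single regions gave the log2 changes of 0.49 at Mapk3, a MAP kinase, and 0.40 at Map2k3, a p38 activator. The other shared regions of these genes were not called (0.10 at Mapk3, 0.12 and 0.05 at Map2k3). At Mapk14, which encodes p38α, 1 region changed by -0.63, and the others, at 0.18, 0.20 and 0.19, were not called. Of 15 regions at 10 genes known as AP-1 targets, 2 were higher and 0 lower, against 6.42% and 3.4% of all regions. They were 1 region of Mmp9, a matrix protease, at 0.68 and 1 of Plaur, the urokinase receptor, at 0.44. Other shared regions of both genes were not called. With background scaling these lists had 0, 0 and 0 regions higher and 1, 6 and 0 lower, against 0.813% higher and 9.39% lower of all regions.

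Regions on other chromosomes that followed the members most closely over the 16 libraries, in scaled log2 summit reads, are given as a description. Among those most like the downstream Fos region were regions at Tra2a (Pearson r = 0.913) and Txnrd1 (r = 0.902). The Jun start site correlated best with regions at Ascc3 (r = 0.96), Tnfaip8 (r = 0.954) and Shprh (r = 0.951). All points share library depth and scaling, and the Jun values include the high one of diabetic baseline replicate 4.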

How the data were processed

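ATAC-seq peak lists of 16 libraries (50000 cells each, fragments over 1200 bp removed, 50-bp single reads, per the labels' protocols) were analysed on mm10. The deposited lists give for each summit a fold (a ratio of reads to local background) and −log10 p and q-values. Tools named in the submitters' processing notes, without role or order, are MACS2 2.1.1, Bowtie2 2.2.6, Trim Galore 1.8, DiffBind 2.4.8, FastQC 0.11.3 and edgeR. Treatment of duplicates and Tn5 shift are not given in the sources used here. Each sample has its own peak list, with no pooling.

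From the fold, (n + 1)/(λ + 1), and p, the whole reads n and local background λ were recovered at 99.9987 to 100% of summits within 0.001. Above the library's background (82.5% of summits) λ came in steps of 0.0147, 1 read of 147 bp in 10000 bp, and gave whole reads per 10 kb at 100% within 0.1. The depth of each sample is not in the lists; the median shared region held 27 to 58 reads, and that limits precision. Peaks that overlapped or touched were merged into 102496 regions (1057251 summits), and 83972 of these had calls from 2 libraries or more.

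Log2 reads of regions called in all 16 libraries, scaled to equal medians, were fitted with limma 3.58.1 (trended, 4 group means, Benjamini-Hochberg adjustment over all regions) in R 4.3.3. Calls used Fisher's exact test, and regions per gene an exact permutation of 4900 label assignments within phenotype (smallest p 0.000408). Alternatives were other scalings, flanks and lists, a mouse block and leaving out each library. Other steps used Python 3.11.15, scipy 1.17.1 and pandas 2.3.3. On simulated data limma recovered 99 of 100 regions at a log2 change of 1 and 33 of 100 at 0.5, with 5 false calls among 24955.

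Each mouse sample was split, so replicate numbers pair libraries within a phenotype. The correlation of paired deviations was 0.40, 0.19, -0.04 and 0.33 in diabetic and 0.42, 0.36, 0.01 and 0.07 in control samples. Members and gene lists were chosen with earlier results of these data known. Regions were named where they lead a member gene, pass the threshold, or differ by at least 4 calling libraries. In the other lists the named regions are the 2 largest and 2 smallest called changes. Some of the genes so selected are not reported here. RefSeq promoter sequences, and no genome, were used.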

Additional observations from a re-analysis of the deposited data

Results flagged for a closer look

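Of 104 groups of 4 libraries examined over 13 named regions, in summit reads and in reads per 10 kb, 5 held a library far from the other 3. By chance alone about 1 in 20 separate groups would hold such a library. These groups are not separate, since regions of 1 gene share most of their window, so 5 is not set against that share. All 5 concern scaled reads per 10 kb. Diabetic IL-1β replicate 1 was the high one at the Fos start site, with 851 against 624 to 651 in the other 3 libraries. The same library was high on the Jund body, with 1440 against 1307 to 1328, and at the Atf3 start site, with 729 against 606 to 618. Diabetic baseline replicate 4 was low at the region downstream of Fosb that overlaps Rtn2, with 171 against 239 to 249. Control IL-1β replicate 2 was low at the Junb start site, with 1820 against 1961 to 1976.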

How the results depend on the processing

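Of the alternatives for counts and tests, 603 kept the value within 1.5 times and 43 moved it; for single regions 484 kept direction and call, 21 lost the call, 9 gained it and 6 reversed. Under the deposited fold 0 member regions were lower and 12 higher (Fos family 0 and 6, Jun family 5 higher), and the Fos start site, downstream Fos, Fosb body, Fosb start site and outer Fosb regions changed by 0.91, 0.47, 1.39, 1.0 and 0.012; Jund changed by -0.11 under cyclic loess. The cause was not tested beyond the arithmetic of the fold. With a flank of 2 kb, which leaves fewer regions, 3 were lower, all 3 of the Fos family. Jun family regions lower numbered 1 with background scaling and 1 with cyclic loess, and background scaling left 0 higher per 10 kb, also in the Jun family. The mouse as a replicate block, over the paired portions, gave 1 member higher (at Junb) and so 1 in the Jun family, and 5 lower within control samples. It added the calls at Fosl1 and Junb named above and ended none of the 6 calls in summit reads. Regions with at least 4 fewer calling libraries numbered 3 with peaks at a −log10 q of at least 5 and 1 with lists of equal length, which also gave 1 gained, and 1 lost and 1 gained at an unadjusted p below 0.05. Leaving out 1 library gave 5 to 8 members lower and 0 to 2 higher (Jun family 0 to 1), 1 to 2 higher per 10 kb, 2 to 6 lower within control samples, 3 to 8 losses and 0 to 1 gains of at least 4 libraries, and 3 to 7 losses at an unadjusted p below 0.05. Reads at the summit of a shared region, 27 to 58 in the median, limit what could be detected. In the simulation, with 100 regions changed at each size and 1 fixed spread, log2 changes of 0.5 were recovered in 33 of 100 regions. That share need not hold for the member regions, where log2 changes of -0.30 and -0.35 were called. An edgeR count test planned as an alternative was run on the recovered reads. It is left out, because the deposited values themselves are not counts.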
